A study of Mus musculus with 4 samples.

Results

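Fatty acid oxidation is described here in whole hearts of Klf9 knockout and wild-type mice, through 36 genes. The genes were chosen by name for their enzyme function, with earlier results of these data known. They encode acyl-CoA synthetases, carnitine transferases, the dehydrogenases and later enzymes of mitochondrial beta-oxidation, and peroxisomal enzymes. All 36 were found among the 17485 genes of the processed table. Total RNA of the heart had been sequenced in 2 libraries from mice lacking Klf9, a Krüppel-like zinc finger factor, and in 2 libraries from wild-type mice. The labels gave male sex, an age of 8 weeks and free access to food and water for all 4, and the question put was what Klf9 does for mitochondrial function in the heart. The sources used here give neither the method of deletion nor the strain, and do not say that each library is a different animal. Any p-value below thus reflects the scatter of these 4 libraries alone, and that scatter may be technical.

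In beta-oxidation, a fatty acid is first joined to coenzyme A by a long-chain acyl-CoA synthetase. The acyl group crosses the mitochondrial membranes as a carnitine ester, made by carnitine palmitoyltransferase 1 and undone by carnitine palmitoyltransferase 2. Repeated rounds of dehydrogenation, hydration, dehydrogenation and thiolysis then shorten the chain, and the electrons of the first step pass through electron transfer flavoprotein to ubiquinone. Peroxisomes shorten the longest chains by a parallel route. The adult heart is known to take most of its fuel from this pathway, whereas the heart before birth relies more on glucose and lactate.

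The deposited table held log2 ratios between pairs of libraries, not levels, so the depth of each library is unknown. A value per library was recovered from these ratios, in an unknown unit and on a scale that assumes a smallest step of 0.01. Values are therefore compared between libraries for 1 gene at a time and not between genes, and the sums over marker genes given below weigh each gene by its recovered value. Klf9 itself stood at 2.66 and 1.99 in the knockout libraries, against 74.9 and 58.8 in the wild-type libraries. Other differences set the groups and libraries apart. The 4 Y-linked genes read summed to 42.4 in knockout replicate 1 and 1.33 in knockout replicate 2, against 46.2 and 70.2 in wild type, so knockout replicate 2 did not follow its label of male sex. Esr1, the estrogen receptor gene, stood at 0.09 and 0.03 in the knockout against 3326 and 2726 in wild type. All 5 tested genes typical of the fetal or newborn heart and all 6 cell cycle genes were higher in the knockout, against 27.7% of all tested genes. A gene was tested if it reached 1 in 2 libraries. Tnni1, Dlk1, Cdk1, Ccnb1 and Aurkb met this limit only through the knockout, where they were higher. Examples were Tnni1, the slow skeletal troponin I (656 and 994 against 0.16 and 0.01), and Mki67, a proliferation marker (17.0 and 20.8 against 1.03 and 1.16). The part of these differences in the results below was not tested, and the design cannot tell the loss of Klf9 apart from them.

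Of the 36 genes, 2 rose and 10 fell in knockout hearts, and 24 did not pass the test. The test was limma on log2(value + 1), with a gene said to have risen or fallen where its Benjamini-Hochberg adjusted p over all 12135 tested genes was below 0.05. All 36 genes entered it. The 2 that rose were Acsl3 and Cpt1a, and the 10 that fell were Acad11, Acsl6, Acad12, Etfa, Acadm, Hadhb, Echs1, Ehhadh, Etfdh and Cpt2. Across all tested genes 27.7% were higher and 17.0% lower in the knockout, against 5.56% and 27.8% of the 36. The same 27.7% and 17.0% are the shares to set beside the counts by role below, each over few genes. Both knockout libraries lay above both wild-type libraries in 9 of the 36 genes (25.0%) and below both in 17 (47.2%), against 45.2% and 30.2% of all tested genes. The median log2 fold change was -0.23 over the 36 genes and 0.12 over all tested genes, a difference of -0.34. In whole hearts, fewer cells of a type and less RNA per cell cannot be told apart.

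**Figure D1:**
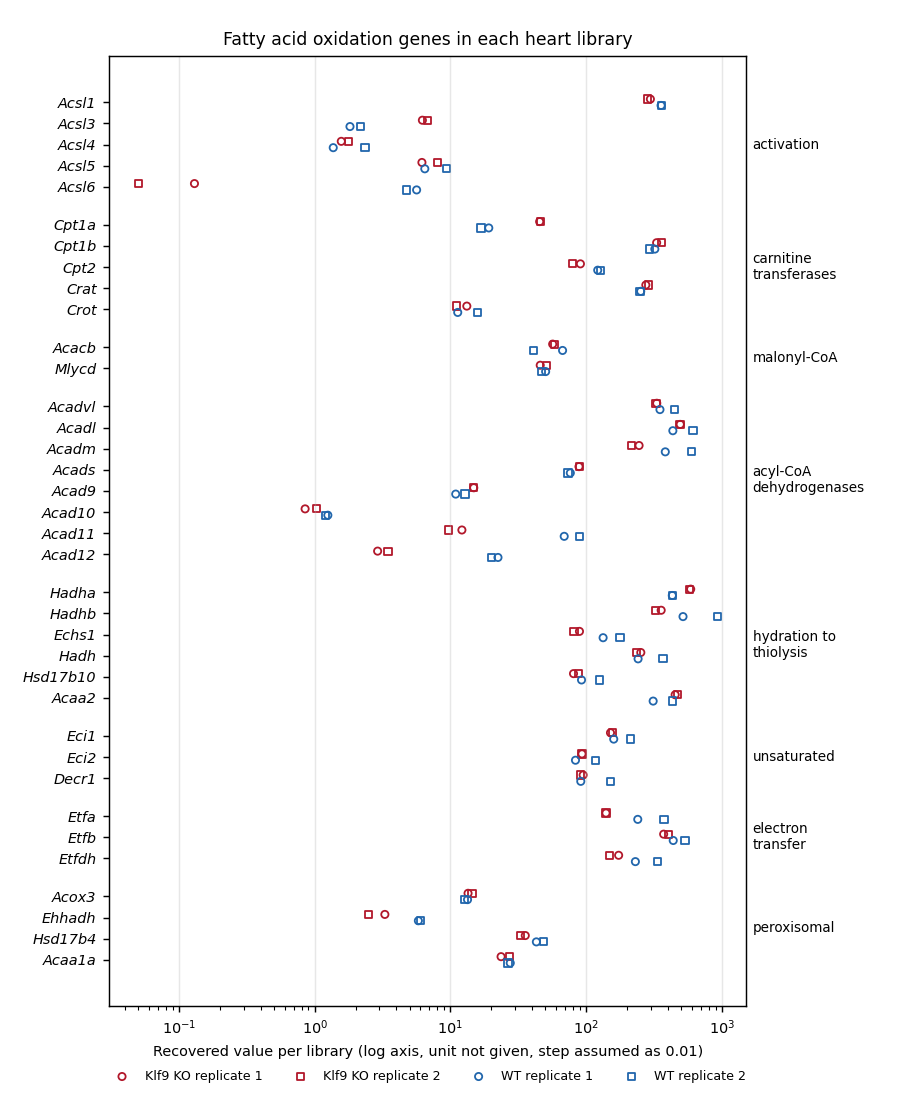
Value recovered for each of the 36 genes in each library (log axis, unit not given), grouped by role, with knockout libraries in red above wild-type libraries in blue, circles for replicate 1 and squares for replicate 2. Acsl6, Acad11 and Acad12 show a wide gap between the groups, Acsl3 and Cpt1a a gap in the other direction, and in most other genes the 4 points lie close together.

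The counts depended on which libraries were read. With knockout replicate 1 left out 2 rose and 4 fell, and with knockout replicate 2 left out 2 rose and 3 fell. With wild-type replicate 1 left out 4 rose and 17 fell, and with wild-type replicate 2 left out 5 rose and 10 fell. Counts over all 12135 genes moved too, with 2195 that rose and 1247 that fell when knockout replicate 1 was left out and 1859 and 1100 when it was knockout replicate 2. They were 4327 and 3261 with wild-type replicate 1 left out and 3995 and 2318 with wild-type replicate 2 left out. Of the 12 genes that passed, 5 passed with any 1 library left out: Acsl3, Cpt1a, Acsl6, Acad11 and Acad12.

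The wild-type libraries differed from each other in these genes. Replicate 2 was above replicate 1 in 25 of 36 genes, with a median difference of 0.25 on the log2(value + 1) scale and extremes of -0.69 (Acacb) and 0.84 (Hadhb). Over all tested genes the same median was 0.03, with replicate 2 above replicate 1 in 52.4%. In the knockout libraries the median difference of the 36 genes between replicate 2 and replicate 1 was 0.002, with extremes of -0.30 and 0.33. The 10 cardiomyocyte markers were mixed between wild-type libraries, with replicate 2 above replicate 1 in 6 and below it in 4. Their median there was 0.24, with extremes of -0.58 and 0.86, and between knockout libraries it was -0.12.

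**Figure D2:**
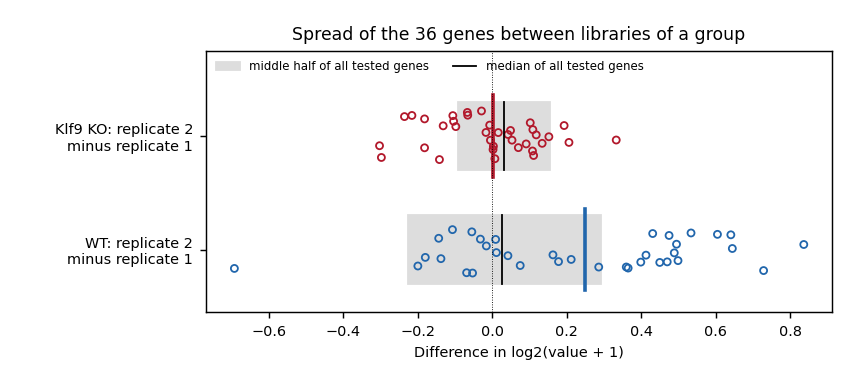
Difference in log2(value + 1) between replicate 2 and replicate 1 for each of the 36 genes (circles; vertical spread is for legibility only), in the knockout (above) and in wild type (below), with a coloured line at their median and a grey box for the interquartile range of all tested genes. The wild-type points centre on 0.25 and the knockout points on 0.002.

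Among the 5 long-chain acyl-CoA synthetases, which activate fatty acids, Acsl3 rose and Acsl6 fell. Acsl3, an enzyme of the endoplasmic reticulum and lipid droplets, had values of 6.22 and 6.75 in knockout hearts, against 1.82 and 2.19 in wild-type hearts. Its log2 fold change was 1.32 ± 0.17 (SE, n = 2 libraries per group here and below; limma adjusted p = 0.000438). Acsl6, a synthetase best known from brain and red cell precursors, had values of 0.13 and 0.05 in the knockout against 5.64 and 4.78 in wild type, which puts the knockout libraries near the smallest step. Its log2 fold change was -2.51 ± 0.16 on the log2(value + 1) scale (limma adjusted p = 1.47e-05), and -6.03 as the log2 ratio of the groups in the authors' deposited table, which adds no pseudocount. Neither gene's groups overlapped.

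The other synthetases did not pass. Acsl1, the main long-chain synthetase of heart and fat, stood at 298 and 285 in the knockout against 357 and 359.5 in wild type, groups that did not overlap (log2 fold change -0.30 ± 0.21, limma adjusted p = 0.269). Acsl4, which prefers arachidonic acid, stood at 1.57 and 1.77 against 1.37 and 2.35. Acsl5, a synthetase also found at mitochondria, stood at 6.17 and 8.03 against 6.48 and 9.40. In both of these the wild-type libraries enclosed at least 1 of the knockout libraries.

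Of the 5 carnitine transferases 1 rose, 1 fell and 3 did not pass. Cpt1a, the liver isoform of carnitine palmitoyltransferase 1, which is also the form prominent in the heart before and around birth, stood at 45.5 and 46.0 in the knockout against 19.2 and 16.8 in wild type. That was a log2 fold change of 1.30 ± 0.18 (limma adjusted p = 0.000581), or 2.46-fold on the log2(value + 1) scale. Cpt1b, the muscle isoform of the adult heart, stood at 331 and 359.5 against 321 and 292 and did not pass (0.17 ± 0.21, limma adjusted p = 0.538). On the log2(value + 1) scale the change of Cpt1a lay 1.13 above that of Cpt1b. Within each library, Cpt1a minus Cpt1b on that scale was -2.837 and -2.939 in the knockout, against -3.997 and -4.039 in wild type. Whether the 2 changes differ was not tested.

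Cpt2, the transferase of the inner membrane, fell slightly, with 90.9 and 79.97 in the knockout against 122 and 129 in wild type (log2 fold change -0.55 ± 0.20, limma adjusted p = 0.0483). It no longer passed without knockout replicate 1 (-0.64, adjusted p = 0.258), without knockout replicate 2 (-0.46, adjusted p = 0.471), or with the fit on ratios alone (-0.55, adjusted p = 0.0615). Crat, which exchanges short acyl groups with carnitine, stood at 276 and 289 against 253 and 250.2, and Crot, the peroxisomal octanoyltransferase, at 13.2 and 11.1 against 11.3 and 15.8. Neither passed. The groups of Crat and of Cpt1b did not overlap, with the knockout higher, and those of Crot did.

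Control of the carnitine step by malonyl-CoA runs through Acacb, which makes this inhibitor at mitochondria, and Mlycd, which breaks it down. Acacb had values of 56.8 and 58.7 in the knockout, inside the 67.1 and 41.1 of wild type. Mlycd had 45.95 and 51.15 against 50.4 and 46.7, with a log2 fold change of -0.0003 ± 0.18, which became 0.05 without wild-type replicate 1 and 0.08 without knockout replicate 1. Neither passed (limma adjusted p = 0.686 for Acacb and 0.999 for Mlycd). Without wild-type replicate 1 Acacb passed as higher (0.48, adjusted p = 0.00969), and without wild-type replicate 2 its fold change was -0.21.

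Acyl-CoA dehydrogenases carry out the first step of each round, each with its own range of chain lengths. Of 8 genes 0 rose, 3 fell and 5 missed the threshold, and their median log2 fold change was -0.23. Acad11, whose product prefers longer chains and is also linked to the breakdown of 4-hydroxy acids, stood at 12.2 and 9.67 in the knockout against 69.0 and 89.2 in wild type. Its log2 fold change of -2.75 ± 0.21 (limma adjusted p = 2.70e-05) was a 6.71-fold lower level on that scale. Acad12 stood at 2.91 and 3.47 against 22.4 and 20.2 (-2.41 ± 0.17, limma adjusted p = 2.06e-05). Its neighbour and paralog on chromosome 5, Acad10, stood at 0.85 and 1.03 against 1.25 and 1.20 and did not pass (limma adjusted p = 0.306). How reads were divided between these paralogs was not given, so the values of both are uncertain to that extent.

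Of the dehydrogenases named for chain length, the medium-chain enzyme fell. Acadm, the medium-chain dehydrogenase, stood at 246 and 217 in the knockout against 384 and 601 in wild type (log2 fold change -1.05 ± 0.26, limma adjusted p = 0.0109). The groups did not overlap, and the wild-type libraries differed from each other by 0.65 on the log2 scale. Without knockout replicate 1 its adjusted p was 0.0501 (log2 fold change -1.14), and without knockout replicate 2 it was 0.123 (-0.96).

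The other chain-length enzymes and Acad9 did not pass. Acadvl, the very long-chain enzyme, stood at 332 and 328 in the knockout against 350.5 and 450.2 in wild type. Acadl, the long-chain enzyme that matters in mice, stood at 494 and 493 against 436 and 615, so that the wild-type libraries enclosed the knockout ones. Acads, the short-chain enzyme, stood at 88.7 and 89.1 against 76.6 and 73.7, and its knockout libraries were both higher. Acad9, which also serves in the assembly of complex I, stood at 14.9 and 14.8 against 10.95 and 12.8, again with both knockout libraries higher. Log2 fold changes of these 4 lay between -0.27 and 0.30. Without wild-type replicate 1 Acadvl passed as lower (-0.45, adjusted p = 0.0260), and without wild-type replicate 2 Acad9 passed as higher (0.41, adjusted p = 0.0293).

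The enzymes that follow, from hydration to thiolysis, included 2 that fell and 4 that did not pass. Hadha and Hadhb encode the alpha and beta subunits of the mitochondrial trifunctional protein, which handles long chains, and their differences had opposite signs. Hadha stood at 591 and 579 in the knockout against 432 and 435 in wild type (log2 fold change 0.43 ± 0.21, limma adjusted p = 0.133). Hadhb stood at 358 and 324 against 518 and 927 (-1.02 ± 0.29, limma adjusted p = 0.0205). Between wild-type libraries Hadhb differed by 0.84 on the log2(value + 1) scale and Hadha by 0.01. On that scale the change of Hadha lay 1.45 above that of Hadhb. Within each library, Hadha minus Hadhb was 0.721 and 0.835 in the knockout, against -0.262 and -1.088 in wild type. Whether the 2 changes differ was not tested.

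The call for Hadhb rested on the libraries used. It was lost without knockout replicate 1 (log2 fold change -1.09, adjusted p = 0.0732) and without knockout replicate 2 (-0.95, adjusted p = 0.142). It passed with either wild-type library left out, at -1.44 when that was replicate 1 and -0.60 when it was replicate 2. With all genes tested, without the filter on low values, its adjusted p was 0.0671. Hadha passed as higher without wild-type replicate 1 (0.42, adjusted p = 0.0357) and without wild-type replicate 2 (0.44, adjusted p = 0.0382).

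Echs1, the short-chain enoyl-CoA hydratase, fell, with 89.4 and 81.5 in the knockout against 134 and 178 in wild type (log2 fold change -0.85 ± 0.22, limma adjusted p = 0.0131). It did not pass without knockout replicate 1 (-0.91, adjusted p = 0.0898) or without knockout replicate 2 (-0.78, adjusted p = 0.175). Hadh, the medium and short-chain hydroxyacyl-CoA dehydrogenase, stood at 253 and 237 against 242 and 368, with overlapping groups. Hsd17b10, a dehydrogenase that also belongs to mitochondrial RNase P, stood at 80.8 and 87.4 against 92.6 and 125, both knockout libraries lower. Acaa2, a mitochondrial thiolase, stood at 454 and 471 against 312 and 433, both knockout libraries higher. None of these 3 passed. Without wild-type replicate 1 Hadh (-0.59, adjusted p = 0.00624) and Hsd17b10 (-0.57, adjusted p = 0.00579) passed as lower, and without wild-type replicate 2 Acaa2 passed as higher (0.56, adjusted p = 0.0105).

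Auxiliary enzymes for unsaturated chains did not pass in any of 3 cases. Eci1, a mitochondrial enoyl-CoA isomerase, stood at 151 and 156 in the knockout against 159.9 and 211 in wild type. Eci2, an isomerase of mitochondria and peroxisomes, stood at 93.3 and 93.4 against 83.6 and 118, and Decr1, the dienoyl-CoA reductase, at 95.2 and 90.8 against 91.4 and 152. For Eci1 the groups did not overlap, and for the other two they did. Without wild-type replicate 1 Eci1 (-0.46, adjusted p = 0.0213) and Decr1 (-0.70, adjusted p = 0.00152) passed as lower.

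In all 3 genes of electron transfer from the dehydrogenases to ubiquinone, both knockout libraries lay below both wild-type libraries, and 2 of the 3 fell. Of all tested genes, 30.2% lay below in the same way and 17.0% fell. Etfa, the alpha subunit of electron transfer flavoprotein, stood at 140.2 and 140.5 in the knockout against 240.5 and 376 in wild type. Its log2 fold change was -1.09 ± 0.25 (limma adjusted p = 0.00783). Etfdh, the membrane oxidoreductase that hands the electrons to ubiquinone, stood at 174 and 149.6 against 231 and 335 (-0.78 ± 0.24, limma adjusted p = 0.0285). Etfb, the beta subunit, stood at 373 and 403 against 439 and 535 and did not pass (-0.32 ± 0.22, limma adjusted p = 0.269). The median log2 fold change of the 3 was -0.78. Without knockout replicate 1 the adjusted p was 0.0516 for Etfa and 0.124 for Etfdh, with fold changes of -1.09 and -0.89. Without knockout replicate 2 it was 0.0572 and 0.290, with fold changes of -1.09 and -0.67. Etfb passed as lower without wild-type replicate 1 (-0.46, adjusted p = 0.0240). Etfdh did not pass without the filter on low values (adjusted p = 0.0677).

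Of the 4 peroxisomal genes, Ehhadh fell. This bifunctional hydratase and dehydrogenase, induced by PPAR alpha in liver, stood at 3.29 and 2.49 in the knockout against 5.81 and 6.01 in wild type (log2 fold change -0.84 ± 0.18, limma adjusted p = 0.00548). Without knockout replicate 2 it did not pass (-0.69, adjusted p = 0.106). Hsd17b4, the other bifunctional protein, stood at 35.65 and 33.1 against 43.0 and 48.3 and did not pass with the values as recovered (-0.40 ± 0.18, limma adjusted p = 0.104), but did after RLE scaling (-0.51, adjusted p = 0.0438) and without wild-type replicate 1 (-0.48, adjusted p = 0.00973). Acox3, an oxidase of branched acyl-CoA, stood at 13.5 and 14.4 against 13.4 and 12.7, with a log2 fold change of 0.09 that was -0.02 after RLE scaling. Acaa1a, a peroxisomal thiolase with a close paralog, stood at 23.6 and 27.4 against 27.6 and 26.6. Neither of the last 2 passed.

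**Figure D3:**
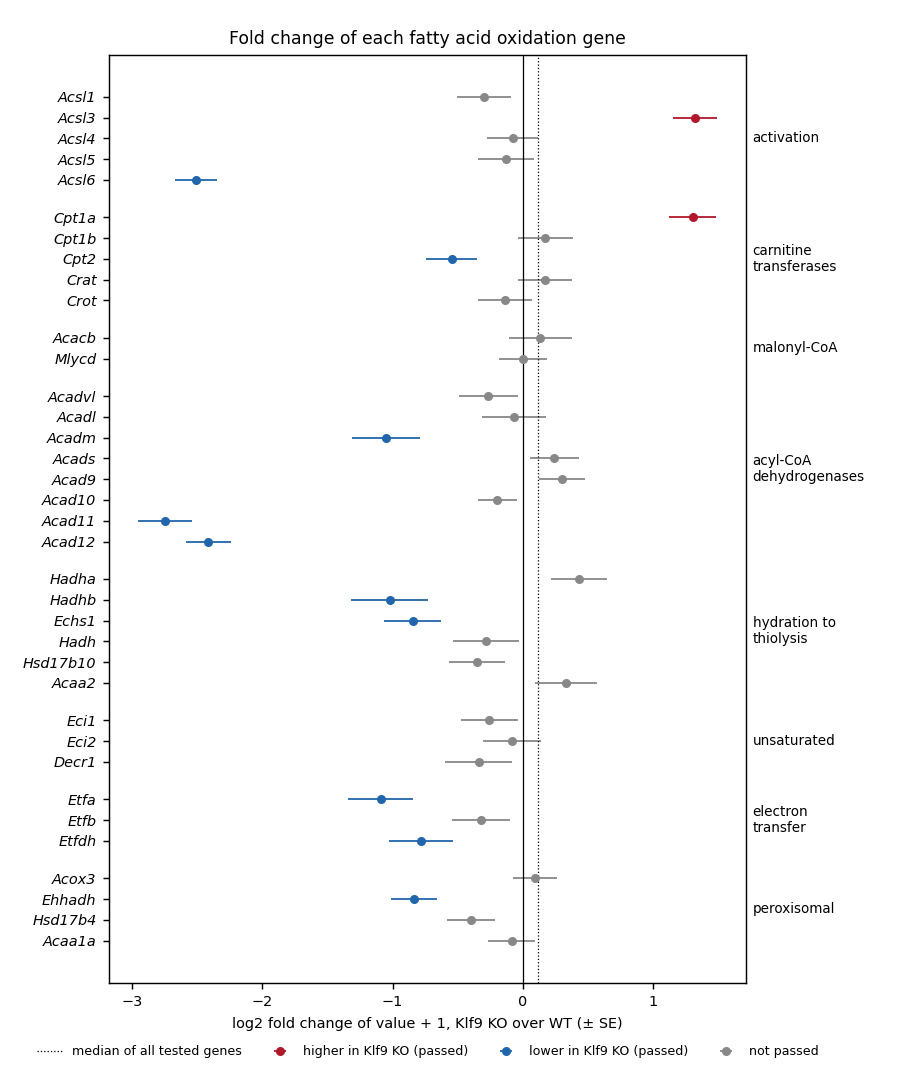
Log2 fold change of value + 1, knockout over wild type, with its standard error (limma, n = 2 libraries per group), for each of the 36 genes by role; colour gives the call, and the dotted line is the median of all tested genes at 0.12. With this pseudocount points run from -2.75 (Acad11) to 1.32 (Acsl3), and 26 of 36 lie below 0; with a pseudocount of 0.1 Acsl6 is at -4.83 and Acad11 at -2.84.

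**Figure D4:**
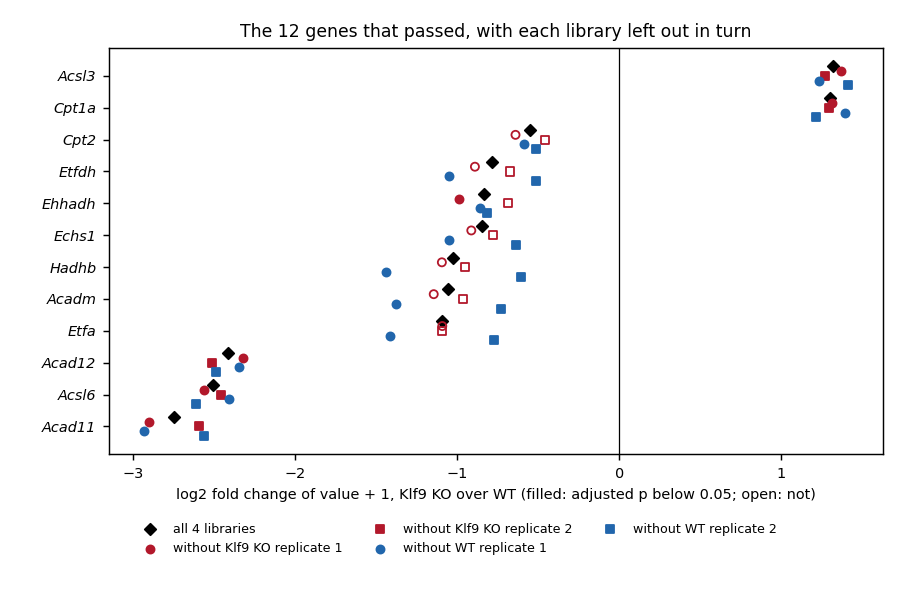
Log2 fold change of the 12 genes that passed, with all 4 libraries (black) and with 1 library left out (red for a knockout library, blue for a wild-type one), filled where the adjusted p was below 0.05. Acsl3, Cpt1a, Acad12, Acsl6 and Acad11 are filled throughout, whereas the other genes have open points where a knockout library was left out.

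The authors' deposited table also compares the groups, with DEGseq. With a DEGseq q-value below 0.001 and a log2 ratio of at least 1 in size, the authors' deposited table had 2 of the 36 genes higher (5.56%) and 7 lower (19.4%), against 14.3% and 8.77% of the 16254 genes with a ratio. The 2 higher genes were Acsl3 (log2 ratio 1.69) and Cpt1a (1.33), and the 7 lower were Acsl6, Acad11, Acad12, Etfa, Acadm, Ehhadh and Hadhb in the authors' deposited table. With limma and a log2 fold change of at least 1 in size, 2 of the 36 rose and 6 fell, against 11.1% and 7.33% of all tested genes. With q below 0.05 alone the authors' deposited table listed 30 of the 36 in either direction, against 70.0% of the genes with a ratio, and how replicates entered that model was not given. The 4 pairwise log2 ratios of the authors' deposited table were all negative in 17 genes, all positive in 9 and of both signs in 10. This restates the separation of the libraries given above, since the recovered values came from these ratios. Of all tested genes, 30.2% had both knockout libraries below both wild-type ones and 45.2% above. For Acadm the 4 ratios ran from -1.47 to -0.64 in the authors' deposited table, and for Etfa from -1.42 to -0.78. For Acad11 they ran from -3.21 to -2.50 and for Cpt1a from 1.25 to 1.45 in the authors' deposited table, a narrower spread for Cpt1a. The 4 ratios share libraries and are not independent.

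Sequence before the start site was read for the genes that moved most and for Hadhb, which fell. Its window overlaps that of Hadha, which did not pass. RefSeq windows of 250 bases upstream of annotated starts (build GRCm38.p6) were matched by symbol for 30 of the 36 genes, as 33 windows. No window was found in the table used for Decr1, Cpt1b, Acad9, Acaa2, Crat and Hsd17b4. In the sequences below, capitals mark GGGCGG (the GC box read by Sp and Krüppel-like factors), CACCC (a box read by Krüppel-like factors), AGGTCA (a half-site of nuclear receptors) and TCAAGGTCA (its extension as read by estrogen-related receptors, which contains AGGTCA), on either strand.

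Upstream of Acsl3 (chr1:78657575-78657824, plus strand) and Cpt1a (chr19:3323051-3323300, plus strand), the genes that rose, the windows read as follows.
Acsl3: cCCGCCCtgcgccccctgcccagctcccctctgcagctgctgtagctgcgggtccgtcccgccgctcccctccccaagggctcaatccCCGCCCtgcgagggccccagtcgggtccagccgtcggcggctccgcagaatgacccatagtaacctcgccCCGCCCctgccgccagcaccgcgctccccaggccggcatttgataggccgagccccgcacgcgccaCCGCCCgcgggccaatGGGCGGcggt
Cpt1a: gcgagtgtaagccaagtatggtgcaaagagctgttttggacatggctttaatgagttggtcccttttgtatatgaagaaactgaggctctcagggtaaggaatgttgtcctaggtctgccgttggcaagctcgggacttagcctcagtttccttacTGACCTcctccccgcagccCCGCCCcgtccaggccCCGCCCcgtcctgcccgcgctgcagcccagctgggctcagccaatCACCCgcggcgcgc
They held 5 and 2 GC boxes, and that of Cpt1a also held 1 CACCC box and 1 AGGTCA half-site.

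The windows of Acsl6 (chr11:54303574-54303823, plus strand, the first of 3 annotated starts), Acad11 (chr9:104063474-104063723, plus strand) and Acad12 (chr5:121618939-121619188, minus strand), the genes that fell most, were these.
Acsl6: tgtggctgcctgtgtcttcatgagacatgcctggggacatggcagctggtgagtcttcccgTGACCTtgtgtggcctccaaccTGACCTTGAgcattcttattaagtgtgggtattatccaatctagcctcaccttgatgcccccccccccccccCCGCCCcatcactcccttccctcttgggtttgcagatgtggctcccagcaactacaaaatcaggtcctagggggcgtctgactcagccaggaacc
Acad11: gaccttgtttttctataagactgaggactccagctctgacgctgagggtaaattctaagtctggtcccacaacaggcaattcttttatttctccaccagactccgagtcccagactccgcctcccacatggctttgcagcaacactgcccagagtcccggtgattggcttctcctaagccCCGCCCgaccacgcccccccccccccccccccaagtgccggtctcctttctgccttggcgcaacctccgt
Acad12: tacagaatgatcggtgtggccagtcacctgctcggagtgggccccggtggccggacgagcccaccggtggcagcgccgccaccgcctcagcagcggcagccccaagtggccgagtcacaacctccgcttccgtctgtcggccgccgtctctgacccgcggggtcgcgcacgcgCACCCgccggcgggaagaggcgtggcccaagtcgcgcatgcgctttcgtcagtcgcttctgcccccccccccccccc
This Acsl6 window was the only 1 of the 33 with TCAAGGTCA, found in 0.387% of all 32851 windows of the same length. Acad11 held 1 GC box and Acad12 held 1 CACCC box.

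Hadha and Hadhb lie head to head on chromosome 5, with 272 bases between their annotated starts, so that their upstream windows share 228 bases. The window upstream of Hadhb (chr5:30155003-30155252, plus strand) is printed here, and not all of it lies in the Hadha window.
Hadhb: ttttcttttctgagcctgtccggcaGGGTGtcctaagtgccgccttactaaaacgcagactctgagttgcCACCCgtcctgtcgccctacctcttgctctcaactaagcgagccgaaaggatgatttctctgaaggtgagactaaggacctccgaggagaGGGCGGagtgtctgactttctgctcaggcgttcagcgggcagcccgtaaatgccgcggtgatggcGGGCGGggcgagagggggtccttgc
It held 2 GC boxes and 2 CACCC boxes, and the Hadha window held 1 GC box and 2 CACCC boxes.

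Across the 33 windows, GGGCGG occurred in 22 (66.7%), against 32.7% of all windows, and CACCC in 23 (69.7%), against 52.0%. AGGTCA occurred in 5 (15.2%), against 14.0%. Windows of the 36 genes were also richer in G and C, with a median of 60.0% against 52.4% of bases. The sets are unlike, since all windows cover 27025 annotated genes, tested here or not, whereas all 36 genes were tested. Acsl1 and Acsl6 count with more than 1 window, and the windows of Hadha and Hadhb share 228 bases. Of the 12 windows of genes that fell, 8 held GGGCGG, 6 held CACCC and 3 held AGGTCA. Of the 2 windows of genes that rose, 2, 1 and 1 did. A match describes letters in a window and not binding.

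A second list of 51 further genes of fatty acid oxidation also held more genes that fell than rose. Of its 50 genes found, 46 were tested, of which 6 rose (13.0%), 17 fell (37.0%) and 23 missed the threshold, and their median log2 fold change was -0.27. Over all tested genes the shares were 27.7% higher and 17.0% lower, and the median was 0.12. Leaving out knockout replicate 1 gave 3 that rose and 15 that fell, and leaving out knockout replicate 2 gave 3 and 14. Leaving out wild-type replicate 1 gave 6 and 24, and leaving out wild-type replicate 2 gave 8 and 18. The list spans neighbouring routes, including branched-chain amino acid breakdown (Ivd).

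Of 9 tested thioesterase genes, whose products release fatty acids from coenzyme A, 4 rose (Acot1, Acot2, Acot3 and Acot4), 2 fell (Acot11 and Acot13) and 3 did not pass (Acot7, Acot8 and Acot9). Among all tested genes 27.7% rose and 17.0% fell. Acot1 stood at 43.5 and 63.3 in the knockout against 6.11 and 7.15 in wild type (log2 fold change 2.81 ± 0.22, limma adjusted p = 3.11e-05). Acot3 rose by 0.79 ± 0.15 (1.59 and 1.40 against 0.37 and 0.51). Acot4 stood at 1.29 and 1.76 against 0.61 and 0.83. Acot3 and Acot4 thus met the limit for testing, a value of 1 in 2 libraries, only through the knockout, where they were higher. Acot11 and Acot13, which fell, reached this value in both groups. Acot1 to Acot4 are close paralogs in a cluster, and how reads were divided between them was not given. Acsf2, an acyl-CoA synthetase of mitochondria, stood at 52.1 and 52.3 against 30.01 and 26.3, and did not pass without knockout replicate 1 (adjusted p = 0.0640) or 2 (adjusted p = 0.0750). Cpt1c, a brain isoform of carnitine palmitoyltransferase 1, stood at 4.23 and 3.64 against 2.22 and 1.65, and did not pass without knockout replicate 1 (adjusted p = 0.0817).

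Among the 17 genes that fell, Acsm5, a medium-chain acyl-CoA synthetase, was at the smallest step of 0.01 in both knockout libraries, which can stand for 0, against 4.63 and 4.19 in wild type. Ivd, isovaleryl-CoA dehydrogenase, stood at 37.4 and 31.6 in the knockout against 117 and 122 in wild type (-1.77 ± 0.19, limma adjusted p = 0.000167). Acot11, a thioesterase, stood at 2.12 and 2.82 against 9.21 and 8.53 (-1.51 ± 0.18, limma adjusted p = 0.000273). In each of these 3 both knockout libraries were lower. Slc25a20, the carnitine and acylcarnitine carrier of the inner membrane, stood at 82.9 and 93.1 against 101.00 and 113 and did not pass (limma adjusted p = 0.280).

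**Figure D5:**
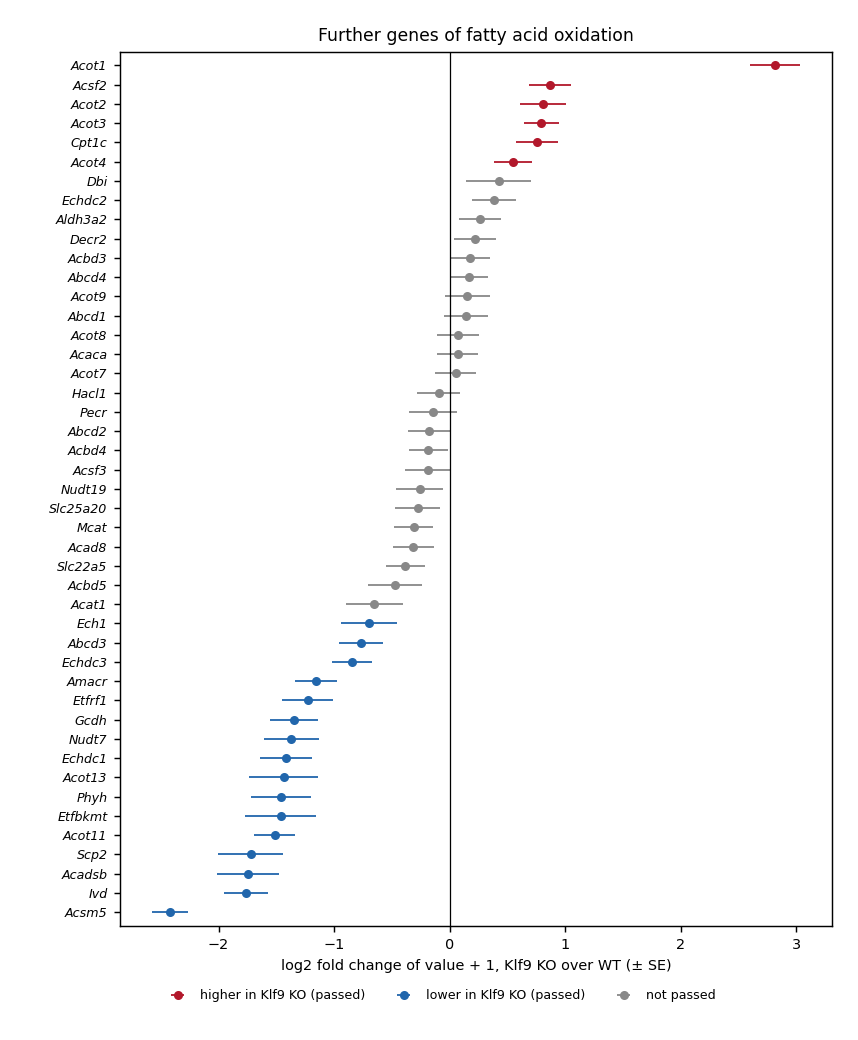
Log2 fold change of value + 1, knockout over wild type, with its standard error (limma, n = 2 libraries per group), for the tested genes of the second list, except 1 that fell and is not drawn, sorted by size and coloured by call. Acot1 has the highest value, 2.81, and 6 genes are higher. The point of Acsm5 depends on the pseudocount, since both knockout libraries are at the smallest step.

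Of 21 tested regulators of these genes 2 rose, 7 fell and 12 did not pass, against 27.7% higher and 17.0% lower among all tested genes. Ppara, the fatty acid receptor that induces many oxidation genes, stood at 17.8 and 17.1 in the knockout against 29.2 and 18.2 in wild type and did not pass (-0.38 ± 0.23, limma adjusted p = 0.207). With wild-type replicate 2 left out it passed as lower (-0.71, adjusted p = 0.00102), and with wild-type replicate 1 left out its fold change was -0.06 (adjusted p = 0.745). Ppargc1a, a coactivator of mitochondrial genes, stood at 35.0 and 30.01 against 34.8 and 29.8, with a log2 fold change of 0.01 that was -0.10 after RLE scaling and -0.05 after upper quartile scaling. Ppargc1b, its relative, was higher (19.2 and 18.6 against 8.47 and 5.29), as was the orphan receptor gene Nr2f2 (10.7 and 11.9 against 6.41 and 5.43), which did not pass without knockout replicate 2 (adjusted p = 0.0743).

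Regulators that fell included Klf15, a Krüppel-like factor linked to cardiac lipid use, with 4.47 and 3.42 in the knockout against 22.4 and 27.6 in wild type (log2 fold change -2.40 ± 0.19, limma adjusted p = 3.86e-05). The estrogen-related receptor gene Esrrb stood at 3.67 and 3.33 in the knockout against 13.7 and 11.2 in wild type. Lpin1, a coactivator and phosphatidate phosphatase, stood at 5.21 and 3.87 against 25.2 and 16.9. Rxrg, which encodes a partner of PPAR receptors, stood at 13.7 and 8.97 against 42.0 and 46.5, and in none of these genes did the groups overlap. Tfam, which maintains mitochondrial DNA, was lower (-0.63 ± 0.21, limma adjusted p = 0.0371) and did not pass without knockout replicate 1 (adjusted p = 0.168), without knockout replicate 2 (adjusted p = 0.194) or, at -0.36, when wild-type replicate 2 was left out (adjusted p = 0.0513), nor with the fit on ratios alone (adjusted p = 0.0637) or no filter (adjusted p = 0.0870). Regulators that fell numbered 5 without knockout replicate 2 and 6 without knockout replicate 1, and those that rose numbered 1 and 2. Without wild-type replicate 1, 5 rose.

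Some markers of cell types differed between the groups as well, where 27.7% of all tested genes rose and 17.0% fell. Of 10 cardiomyocyte markers 0 rose and 3 fell (Mb, Tnni3 and Atp2a2), with a median log2 fold change of -0.47, more negative than the -0.23 of the 36 genes, and their summed values were 44960 and 42134 in the knockout against 44124 and 53176 in wild type. Both knockout libraries lay below both wild-type libraries in 6 of the 10 and above both in 3, Myh6 (log2 fold change 0.44), Myl2 (0.50) and Myl3 (0.39), none of which passed. Among all tested genes 30.2% lay below and 45.2% above. With knockout replicate 1 left out none of the 3 that had fallen passed, and likewise with knockout replicate 2 left out (Mb, adjusted p = 0.0512 and 0.0937). Of 6 fibroblast markers 3 rose and 1 fell, with sums of 779 and 828 against 356 and 531. Of 6 endothelial markers 3 rose and 0 fell (515 and 530 against 392 and 394), and of 6 smooth muscle and pericyte markers 4 rose and 1 fell (397 and 488 against 256 and 317). Macrophage markers fell in 5 of 6 cases (43.3 and 42.7 against 128 and 172). Of 7 tested red cell markers 1 rose, with sums of 18948 and 12516 against 11078 and 10830, and of 4 tested atrial markers 3 rose and 1 fell (106 and 150 against 235 and 198). The part of these differences in the fatty acid oxidation results was not tested.

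Some markers of other tissues rich in these enzymes were near the smallest step, and others of the same lists were not. The fat cell genes Plin1, Cidec and Ucp1, the skeletal myosins Myh1, Myh2 and Myh4 and the liver genes Alb and Afp stood at or under 0.06 in every library. They are named because they met this limit. Of the same lists, Mylpf reached 1.26 in knockout replicate 1, Tnnt3 1.09 in wild-type replicate 2 and Ttr 1.04 in wild-type replicate 1. Summed skeletal muscle markers were 2.57 and 1.61 in the knockout against 1.12 and 2.42 in wild type. Of the hepatocyte markers Ahsg fell, and the list summed to 1.21 and 0.44 against 6.85 and 7.74. Cidea, listed as a fat cell marker, stood at 29.5 and 28.5 against 22.1 and 22.6 and did not pass.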

How the data were processed

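The members, the roles they are ordered by and the lists of other genes were chosen with earlier results of these data known. The authors deposited comparisons only: per the file headers, each of 4 pairs of libraries has a log2 ratio with a p-value and an FDR (read as a score, since it passes 1) from a comparison whose header name is taken to mean Poisson, and the groups have a log2 ratio, p-value and q-value from DEGseq. The deposited ratios are read as knockout over wild type, since Klf9 was negative in all 4. Not given in the sources used here: aligner, counting tool, build, scaling and depth.

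Values per library were recovered as the smallest whole numbers that give the ratios of a gene (continued fractions), times an assumed step of 0.01. All 17485 genes were resolved, against 0% of 2000 genes once the ratios were moved by about 1e-06. A factor common to the 4 values of a gene is lost (7.07% of genes in a test with known answers), which lowers its level but not its ratios, and so can change whether the gene is tested and, through the pseudocount, its fold change. The 12135 genes that reached 1 in 2 or more libraries were fitted with limma 3.58.1 in R 4.3.3 (trend, robust) on log2(value + 1) with group as the only term. Group and replicate number came from the sample titles. Tested on simulated data with 200 of 12135 genes changed, 96% of 2-fold and 100% of 4-fold changes were recovered, with 20 false calls. The simulated noise was independent between genes and took the fitted variances, so it held no shift shared by genes within a library. Far fewer genes were changed than the 3367 higher and 2061 lower called in the data. The recovery is thus not a measure of power in these data. The planned design named the limma test, so no unit changed it. Python 3.11.15, numpy 2.4.6, pandas 2.3.3 and matplotlib 3.10.9 were used for the remaining steps. Every member was accounted for; of other lists the text names the 4 genes of lowest p in each direction and Slc25a20, Ppara, Ppargc1a and Tfam, except 1 gene that is not reported here. Alternatives were RLE and upper quartile scaling, a pseudocount of 0.1, a fit on ratios alone (no pseudocount, no trend), no filter, a filter at 5, no robust step, a replicate block, and each library left out. A lone library of a group is then assumed to vary like the other group.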

Additional observations from a re-analysis of the deposited data

How the results depend on the processing

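With each library left out in turn, the count of fatty acid oxidation genes that fell ranged from 3 to 17 and of those that rose from 2 to 5, and over all tested genes from 1100 to 3261 and from 1859 to 4327. Under the other 8 settings 7 to 11 of the 36 genes fell and 2 rose, and the 12 calls stood except Cpt2 (ratios alone and no filter), Hadhb and Etfdh (no filter). RLE scaling moved the median of all tested genes from 0.12 to 0.02 and the share of higher among all calls from 62.0% to 52.6%, and the log2 fold change of Acox3 became -0.0164. Ppargc1a became -0.10 after RLE and -0.0457 after upper quartile scaling. Signs turned in genes that had not passed when a library was left out: Acsl4 ranged from -0.33 to 0.17, Acsl5 from -0.37 to 0.11, Crot from -0.36 to 0.0875, Acacb from -0.21 to 0.48, Mlycd from -0.076 to 0.0755, Acadl from -0.32 to 0.18, Hadh from -0.59 to 0.0176, Eci2 from -0.33 to 0.16, Decr1 from -0.70 to 0.0241, Acaa1a from -0.19 to 0.0161 and Ppargc1a from -0.10 to 0.12. The cause was not tested. The sources used here do not say whether the replicate numbers pair the libraries. Same-numbered libraries showed no shared deviation from their group means (correlation -0.04), which cannot settle whether they were paired. With the replicate block, 2 of the 36 genes rose and 10 fell, and 3514 and 2275 of all tested genes. The filter at 5 left 33 of the 36 genes and did not test Acsl6, Acsl4 and Acad10. Depth is unknown, and 2 libraries per group limit the precision. Settings for genes outside the 36 were added after seeing the data.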
